A study of Homo sapiens with 4 samples.

Results

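AP-1 is a family of transcription factors that bind DNA as pairs of basic leucine zipper (bZIP) proteins. A Fos-family protein (FOS, FOSB, FOSL1, FOSL2) pairs with a Jun-family protein (JUN, JUNB, JUND), Jun proteins also pair with each other, and ATF3, BATF3 and the small Maf protein MAFF belong to the wider group of partners. Several of these genes are immediate early genes, transcribed within minutes of a growth factor or stress signal through MAP kinases and the serum response factor. In aggressive breast cancer cells AP-1 is best known for driving proteases and adhesion genes used in invasion. The 10 genes FOS, FOSB, FOSL1, FOSL2, JUN, JUNB, JUND, ATF3, MAFF and BATF3 are described here across 4 arrays. Members were chosen by name, with earlier results of these data known. Every probe that could be tied to one of them was taken. This gave 11 probes of 9 genes, out of 47323 probes in all and of 16013 genes that could be given a probe, while MAFF had none.

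The cells were MDA-231 (MDA-MB-231 in full), a line from a human breast cancer that carries mesenchymal-like features and lacks the oestrogen receptor. They were transiently transfected with a plasmid carrying TARBP2, a double-stranded RNA-binding protein that works with Dicer, or with one carrying GFP, each written pCMV for the CMV promoter, and RNA was taken 48 hours later. Each plasmid had 2 Illumina BeadChip arrays. All arrays therefore came from cells that had been through transfection with a CMV plasmid. The sample labels name GFP as the control whereas the design text speaks of mock transfection, and the labels were followed. Expression from a transient plasmid varies from cell to cell, and in a bulk culture a change in every cell cannot be told apart from a larger change in some of them, nor fewer cells of a kind from less RNA per cell. The labels do not say that the replicates were separate cultures, and a p-value here covers no more than the spread between these arrays, which may be technical.

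Between 44.12% and 45.91% of probes were detected on an array, and the median raw intensity lay between 74.5 and 78.7. One TARBP2 probe, with log2 levels of 15.11 and 15.12 on the TARBP2 arrays against 7.26 and 6.97 on the GFP arrays, matched the labels, whereas a second had a log2 difference of -0.22 (limma adjusted p = 0.0722). Of 8 marker genes of this line, 5 could be given a probe, while VIM, CAV1 and SNAI2 could not. Of the probes of these 5 genes, 8 were tested and 8 or 9 of 9 were detected on every array. The summed raw intensity of those 9 probes was 33009 and 33439 on the TARBP2 arrays, against 41234 and 40826 with GFP. EGFR, AXL and MSN fell, MET rose, and the 3 probes of CD44 did not pass. The MET call was lost without any 1 array (limma adjusted p from 0.0835 to 0.139), and MSN and 1 of 2 AXL probes lost theirs in 3 of the 4 such fits. After the median change of the 50 nearest genes in gene order was subtracted, the log2 difference of MET was -0.17 (adjusted p = 0.103) and that of MSN was -0.74. Of 8 luminal epithelial marker probes, 5 were tested, of which 1 rose and 3 fell, and the summed raw intensity of all 8 was 2760 and 2762 with TARBP2 and 3088 and 3206 with GFP. FOXA1, detected on both GFP arrays and neither TARBP2 array, was at least 5.79-fold lower (limma adjusted p = 0.00011). CDH1 and KRT18 fell and GATA3 rose, each near background. After the median of neighbouring genes was subtracted, the calls of KRT18 and GATA3 were lost (limma adjusted p = 0.0835 and 0.871). That of CDH1 passed narrowly, at a log2 difference of -0.28 (limma adjusted p = 0.0473). None of these calls held in every fit with 1 array left out. KRT8, with log2 levels from 11.10 to 11.24, did not pass, and the hormone receptors ESR1 and PGR were detected on no array. The part of these marker changes in the AP-1 results was not tested. The contrast was broad. Of 22123 probes tested with limma, 40.3% passed a Benjamini-Hochberg adjusted p under 0.05, with 20.5% higher and 19.8% lower on the TARBP2 arrays, and the 4 arrays separated without overlap at 71.7% of all probes.

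The promoters of FOS, JUNB and FOSB are shown because these are the AP-1 genes with the largest called changes, among those with an entry in the RefSeq promoter table, whose probe was tied on its own. Each line holds the 250 bases before the annotated start in GRCh38.p14, written 5′ to 3′ in the sense of the gene. Capitals mark matches on either strand to the TATA box motif TATAAA. The CCAAT box is also in capitals, as is the GC box, searched for as GGGCGG. No match to TGANTCA (the AP-1 site) or TGACGTCA (the cAMP response element, CRE) was found in these windows.
FOS (chr14:75278578-75278827, plus strand): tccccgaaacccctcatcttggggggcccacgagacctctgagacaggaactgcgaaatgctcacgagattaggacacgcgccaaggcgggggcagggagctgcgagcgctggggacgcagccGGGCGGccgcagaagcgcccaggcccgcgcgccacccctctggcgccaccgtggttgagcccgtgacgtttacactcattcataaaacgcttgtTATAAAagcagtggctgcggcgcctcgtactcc
JUNB (chr19:12791236-12791485, plus strand): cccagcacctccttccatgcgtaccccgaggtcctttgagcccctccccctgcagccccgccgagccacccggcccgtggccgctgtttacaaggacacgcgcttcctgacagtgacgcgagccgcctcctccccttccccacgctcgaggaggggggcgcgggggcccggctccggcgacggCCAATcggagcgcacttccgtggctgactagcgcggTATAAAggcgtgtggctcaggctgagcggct
FOSB (chr19:45467746-45467995, plus strand): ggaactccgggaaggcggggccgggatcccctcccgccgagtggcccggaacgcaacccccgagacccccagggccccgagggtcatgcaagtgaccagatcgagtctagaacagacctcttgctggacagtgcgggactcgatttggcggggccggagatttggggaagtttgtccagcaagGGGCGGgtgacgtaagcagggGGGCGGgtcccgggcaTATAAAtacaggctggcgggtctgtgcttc

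All 3 windows held TATAAA, beginning 33 bases before the start of FOS, 31 before that of JUNB and 30 before that of FOSB. Among the 35116 promoters of the table, 10.7% held TATAAA in the same window. The table held 10 windows of 8 AP-1 genes, and 4 of these windows had the motif, the remaining one belonging to ATF3. That match began 230 bases before the start, and the other ATF3 window had none. GGGCGG was present in 8 of the 10 AP-1 windows and in 42.6% of all promoters, and CCAAT in 5 of the 10 and in 32% of all promoters. The CRE sequence lay in 2 windows, one each of JUND and MAFF, against 1.65% of all promoters. TGANTCA was in 0 of the 10 windows and in 6.57% of all promoters. A match is a run of letters, and binding to it was not measured.

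Of the 11 AP-1 probes, 9 probes of 9 genes were detected on at least 2 arrays and tested. BATF3, FOS, JUNB, FOSB and ATF3 rose on the TARBP2 arrays, by 2.63-fold for BATF3, 2.01-fold for FOS, 1.68-fold for JUNB, 1.41-fold for FOSB and 1.29-fold for ATF3. JUN, JUND, FOSL1 and FOSL2 did not pass the test, and 0 of the 9 fell. At an unadjusted p under 0.05, 6 of the 9 probes were called and all 6 had a higher mean on the TARBP2 arrays, against 50.6% of all probes called at that threshold and 25.6% called with the higher mean on those arrays. After adjustment 55.6% of the tested AP-1 probes rose, against 20.5% of all probes and 25.2% of the probes that could be given a gene symbol. The AP-1 share includes the ATF3 probe, from a pair that missed the limit on matches by chance. Pairs of other genes that missed it were left out of the 25.2%. Without the ATF3 pair, 4 AP-1 probes rose. Because the members were chosen with earlier results of these data known, these shares only describe them and are no independent support. The median log2 change was 0.37 for the AP-1 probes and -0.0014 for all probes tested. The groups did not overlap at 7 of the 9 probes, or 77.8%, which is close to the 71.7% of all probes. All values below are log2 levels of background-corrected, quantile-normalised intensity (the neqc method) unless stated otherwise.

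**Figure D1:**
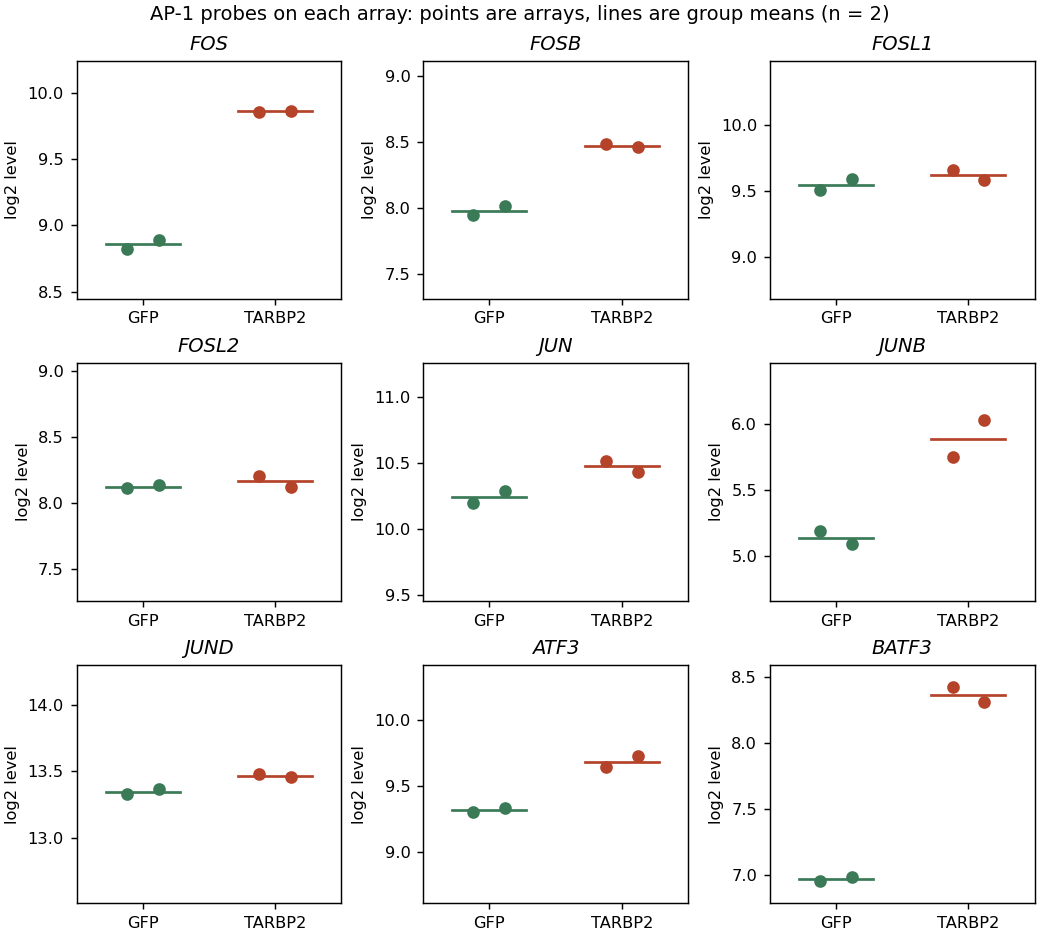
Log2 level (vertical axis, spanning the same number of log2 units in each panel) of the 9 tested AP-1 probes on the 2 GFP arrays (green) and the 2 TARBP2 arrays (red); points are arrays and lines are group means. FOS and BATF3 show the widest separation between groups, whereas the arrays of FOSL1 and FOSL2 overlap.

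FOS, the founding member of the Fos family and a classical immediate early gene, was measured by 1 probe. Its log2 levels were 9.86 and 9.87 on the TARBP2 arrays, against 8.82 and 8.89 with GFP. Both TARBP2 arrays stood above both GFP arrays, by at least 0.97 on the log2 scale, and the replicates of each group lay close together. The log2 change was 1.01 ± 0.08 (SE, n = 2 per group, limma adjusted p = 0.00137). Of all probes tested, 3.42% had a larger rise.

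FOSB, a Fos protein with a transactivation domain whose gene also gives a shorter splice form, had log2 levels of 8.48 and 8.46 on the TARBP2 arrays, against 7.94 and 8.01 with GFP. The groups did not overlap, and the change was smaller than that of FOS. It came to 0.49 ± 0.08 (SE, n = 2 per group, limma adjusted p = 0.00864). Without TARBP2 replicate 1 the limma adjusted p was 0.0529, so that the call was lost. A single probe cannot tell the FOSB splice forms apart.

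FOSL1 encodes FRA1, the Fos-related protein most often linked to mesenchymal-like breast cancer cells. Its log2 levels were 9.66 and 9.59 on the TARBP2 arrays, against 9.51 and 9.59 with GFP, and the groups overlapped. The log2 difference of 0.08 did not pass (limma adjusted p = 0.493), with a 95% confidence interval from -0.13 to 0.29. FOSL2, which encodes the related FRA2, had log2 levels of 8.20 and 8.12 against 8.11 and 8.13. Its arrays also overlapped, and its log2 difference was 0.04 (95% confidence interval -0.16 to 0.24, limma adjusted p = 0.711). Both intervals leave out a change as large as those of FOS and FOSB, but the differences between the Fos genes were not tested.

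JUN, the Jun protein with the strongest transactivation, had log2 levels of 10.51 and 10.43 on the TARBP2 arrays, against 10.19 and 10.29 with GFP. Both TARBP2 arrays were the higher ones, with a gap of 0.14 between the groups. The log2 difference of 0.23 ± 0.08 (SE, n = 2 per group) missed the threshold, with a limma adjusted p of 0.0825 and a 95% confidence interval from 0.02 to 0.44. This probe lay close to the threshold: its adjusted p was 0.0415 from the authors' normalised intensities, 0.0383 without background correction and 0.00868 with an intensity trend and robust prior. The 50 genes nearest to JUN in gene order had a median log2 change of 0.15, and with that median subtracted the JUN difference was 0.08 (adjusted p = 0.42).

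JUNB, a Jun protein that activates less strongly than JUN and can oppose it, lay close to background. Its raw intensities were 102.1 and 113.3 on the TARBP2 arrays, against 86.3 and 84.0 with GFP, with detection p-values of at most 0.0039 on the former and of 0.0234 and 0.0481 on the latter. After correction the log2 levels were 5.75 and 6.03 against 5.19 and 5.09, without overlap. JUNB rose by a log2 change of 0.75 ± 0.12 (SE, n = 2 per group, limma adjusted p = 0.00962). The size depended on the background correction, being 0.38 without it and 0.40 from the authors' normalised intensities, and both still passed.

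JUND, the Jun gene that is broadly and constitutively transcribed, gave a bright probe. Its log2 levels were 13.48 and 13.46 on the TARBP2 arrays, against 13.33 and 13.37 with GFP. The arrays did not overlap, but the gap of 0.09 was small. The log2 difference of 0.12 had a 95% confidence interval from -0.07 to 0.31 and did not pass (limma adjusted p = 0.248).

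ATF3, a stress-induced bZIP protein that represses as a homodimer, had 3 probes. One was tied on its own and was detected on no array, with raw intensities from 46.6 to 55.8. The other two stand for a single deposited accession, and only one of them was detected. Its log2 levels were 9.64 and 9.73 on the TARBP2 arrays, against 9.30 and 9.33 with GFP, without overlap. The log2 change was 0.37 ± 0.08 (SE, n = 2 per group, limma adjusted p = 0.0204). The call was lost when any 1 of the 4 arrays was left out, with adjusted p-values from 0.0622 to 0.0904. The identity of this probe is less certain than that of the others, because 0.3 pairs of probes were expected to match the accession's value by chance, above the limit of 0.05 set for the other pairs. Without this pair, 4 AP-1 probes rose.

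BATF3, a small bZIP protein that lacks a transactivation domain, pairs with Jun proteins and is best known for its part in dendritic cell development, had the largest change of the 9 tested AP-1 probes. Its log2 levels were 8.42 and 8.31 on the TARBP2 arrays, against 6.95 and 6.98 with GFP, and its raw intensities were 387.1 and 367.6 against 172.4 and 179.3. Both TARBP2 arrays lay at least 1.33 log2 units above both GFP arrays. The log2 change was 1.39 ± 0.08 (SE, n = 2 per group, limma adjusted p = 0.000732), and 1.60% of all probes had a larger rise. Of 11 leukocyte marker probes, 5 were tested and 4 rose, namely probes of CD14 and CD8A. The dimmer CD14 probe was detected on neither GFP array and was at least 1.54-fold higher. Both CD8A probes that rose stand for a single deposited accession, and another CD8A probe was detected on no array. The CD2 probe had a log2 difference of -0.65 and did not pass (limma adjusted p = 0.0594, and 0.0296 with the median of neighbouring genes subtracted). The summed raw intensity of the 11 probes was 1775 and 1826 on the TARBP2 arrays, against 1066 and 1092 with GFP. The defining leukocyte genes PTPRC, CD3E and ITGAM were not detected on any array.

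MAFF, a small Maf protein without a transactivation domain, is the one AP-1 gene without intensities here. In the authors' deposited table its log ratio was -0.295, in the class that table marks as lower, which holds 8.44% of its accessions and ends at about -0.200. Of the 11 AP-1 accessions in the authors' deposited table, 10 had a log ratio above 0, and MAFF was the exception. The 10 include an ATF3 probe detected on no array and the less certain ATF3 pair. They also include FOSL2 and FOSL1, at ratios of 0.026 and 0.063, close to 0. The matching share of the whole deposited table was not determined. The authors' deposited table gave 0.825 for FOS and 0.802 for BATF3, against log2 differences of 0.92 and 1.12 from the authors' normalised intensities. These ratios thus differ from log2 differences by amounts that vary between probes. The MAFF ratio therefore cannot be read as a log2 change. The level of MAFF on each array, and hence its error, was not analysed here.

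**Figure D2:**
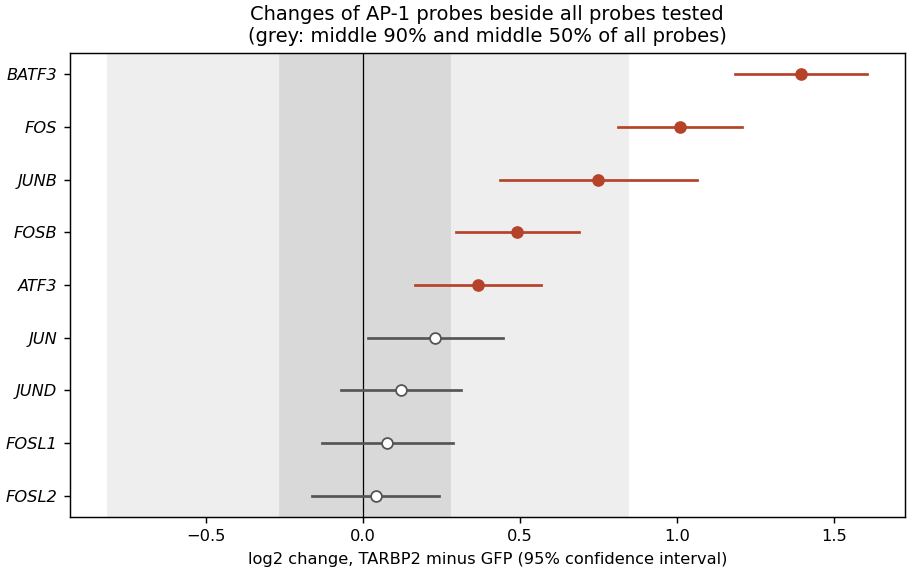
Log2 change, TARBP2 minus GFP (horizontal axis), with its 95% confidence interval for each tested AP-1 probe; filled red points passed an adjusted p under 0.05, open points did not, and the grey bands hold the middle 90% and the middle 50% of all probes tested. BATF3, at 1.39, and FOS, at 1.01, lie outside the wider band, which ends at 0.84, and JUN, JUND, FOSL1 and FOSL2 lie inside the narrower one.

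Of the Fos genes FOS and FOSB rose, and FOSL1 and FOSL2 did not pass the test. Of the Jun genes JUNB, close to background, was the one that passed. The mean of the TARBP2 arrays was the higher one at all 9 tested probes. Among all probes tested, 45.6% had a larger rise than FOSL2, the smallest of the 9 differences. The FOSL2 difference was -0.0022 without TARBP2 replicate 1, and the FOSL1 difference was -0.13 after the median of neighbouring genes was subtracted. The number of AP-1 probes that rose was 3 without TARBP2 replicate 1 and 6 from the authors' normalised intensities. The plot of adjusted p by setting shows that BATF3, FOS and JUNB passed in every setting in which they were tested.

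**Figure D3:**
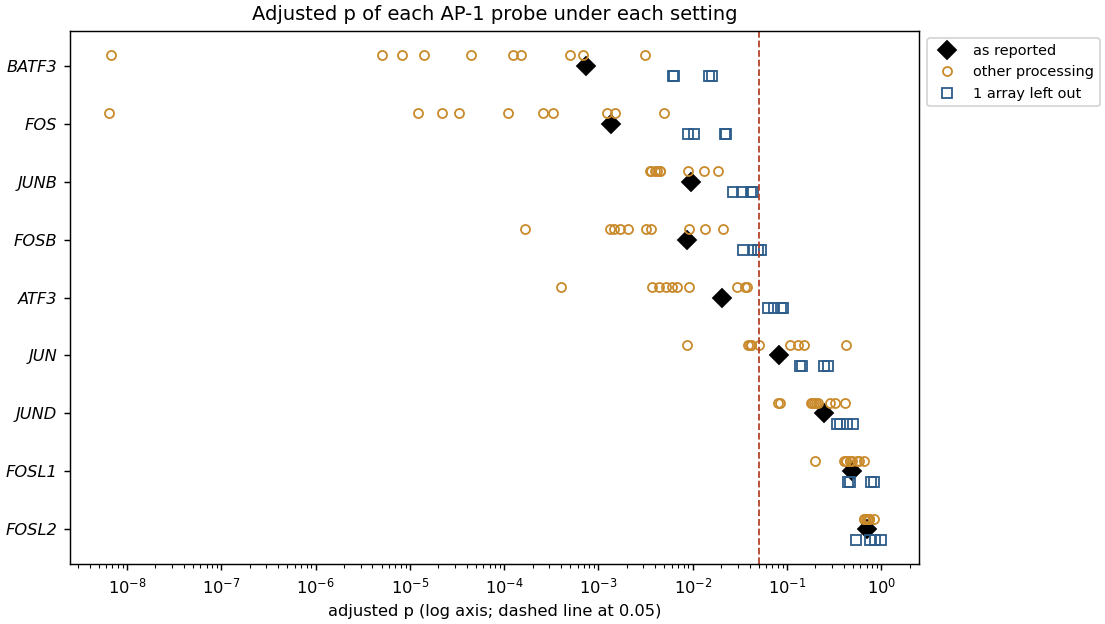
Benjamini-Hochberg adjusted p (horizontal log axis, dashed line at 0.05) of each tested AP-1 probe as reported (black), with 1 array left out (blue squares) and under other processing (orange circles). BATF3, FOS and JUNB stay left of the line, ATF3 crosses it whenever 1 array is left out, and JUN has values on both sides.

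Genes that act before, beside or after AP-1 were followed in the same fit, to set the members beside their pathway. Of all probes tested, 20.5% rose and 19.8% fell, and of those with a symbol 49.0% were called. Rises and falls in a list at about these shares do not set it apart from the arrays as a whole. Other bZIP factors went in both directions. Of 22 probes tested, 6 rose, 6 fell and 10 did not pass, with a median log2 change of 0.09. CREM, a cAMP-responsive factor, had log2 levels of 9.10 and 9.28 on the TARBP2 arrays against 8.31 and 8.40, and rose by 0.83 ± 0.10 (SE, n = 2 per group, limma adjusted p = 0.00416). With the median of its neighbouring genes, 0.34, subtracted, the change of CREM was 0.49. The stress-response factors ATF4 and ATF5 had log2 changes of -0.68 and -0.69 and fell. The probes that rose numbered 3 without TARBP2 replicate 1, and those that fell numbered 3 without TARBP2 replicate 2 or either GFP replicate.

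Several of these factors can pair with the AP-1 proteins. JDP2, a Jun-binding repressor, had log2 levels of 7.50 and 7.30 on the TARBP2 arrays against 7.94 and 7.90 on the GFP arrays, and fell by 0.52 on the log2 scale (limma adjusted p = 0.014). The small Maf gene MAFG fell by 0.56 (limma adjusted p = 0.0297), while the third small Maf, MAFK, was detected on no array. Both falls passed without TARBP2 replicate 1 but not without any other 1 array, where the limma adjusted p reached 0.0599 for JDP2 and 0.108 for MAFG. With the median of neighbouring genes subtracted, the MAFG difference was -0.27 and its call was lost (adjusted p = 0.131). BATF, the closest relative of BATF3, had overlapping arrays, with log2 levels of 8.01 and 7.87 on the TARBP2 arrays against 7.89 and 8.14. Its log2 difference was -0.07 ± 0.12 (SE, n = 2 per group, limma adjusted p = 0.649), and 0.07 with the median of neighbouring genes subtracted.

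The MAP kinases and the kinases that switch them on carry signals to the AP-1 genes and proteins. Of 15 probes tested, 5 rose, 2 fell and 8 did not pass, with a median log2 change of -0.08. MAP3K1, which acts ahead of the Jun kinases, rose by a log2 change of 0.66 (limma adjusted p = 0.00427). MAPK14, the p38 alpha kinase, rose at both of its tested probes, by 0.75 and 0.53. BRAF, a kinase at the top of the ERK branch, was detected on both TARBP2 arrays but not above background on either GFP array, and was at least 1.94-fold higher (limma adjusted p = 0.00793). Its neighbouring genes had a median log2 change of 0.64, and subtracting it took the fitted change from 1.27 to 0.63 (adjusted p = 0.0355). MAP3K5, a stress kinase ahead of p38 and the Jun kinases, fell by 0.38. Neither of the falls in this list passed when any 1 array was left out.

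The serum response factor and the ternary complex factors sit on the FOS promoter in the textbook account of its induction. Of their 6 tested probes 2 rose, 2 fell and 2 did not pass. ELK4 had log2 levels of 7.23 and 7.22 on the TARBP2 arrays against 8.23 and 8.20, and fell by 0.99. ELK1 rose by 0.72 and ELK3, which can act as a repressor, rose by 0.54. MRTFB, an actin-regulated partner of the serum response factor, fell by 0.34. The MRTFB call was lost without any 1 array (limma adjusted p from 0.0692 to 0.106), which left 1 fall. That of ELK3 was lost without TARBP2 replicate 1 (0.0589) or GFP replicate 1 (0.0544), which left 1 rise. With the median of neighbouring genes subtracted, ELK1 had a log2 change of 0.45 and still passed, and MRTFB had one of -0.20 and did not (adjusted p = 0.0675). SRF itself, chosen for mention after its values were seen, had a log2 difference of -0.17 and did not pass (limma adjusted p = 0.14).

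Immediate early genes outside AP-1 did not share 1 direction. Of 19 probes tested, 6 rose, 7 fell and 6 did not pass, and the median log2 change was -0.03. KLF2, a zinc-finger factor, had log2 levels of 10.40 and 10.29 on the TARBP2 arrays against 11.65 and 11.82, and fell by 1.39. ZFP36L1, which binds AU-rich messages and promotes their decay, fell by 0.76. MYC, a growth-promoting factor, rose at both of its probes, by 0.52 and 0.51, and EGR2, a zinc-finger factor of the EGR1 family, rose by 0.57 from a dim signal, but with the median of its neighbouring genes, 0.38, subtracted its log2 difference was 0.19 and the call was lost (adjusted p = 0.124). Without TARBP2 replicate 1 the list had 2 rises and 2 falls, and 1 MYC probe lost its call (limma adjusted p = 0.0616). Without TARBP2 replicate 2 it had 3 rises and 2 falls, with that MYC probe (0.0517) and EGR2 (0.051) uncalled. The count was 3 rises and 3 falls without GFP replicate 1, and 4 falls without GFP replicate 2. EGR1, often induced together with FOS and named here after its values were seen, had a log2 difference of -0.03 with overlapping arrays (limma adjusted p = 0.748).

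Known AP-1 target genes also moved both ways. Of 27 probes tested, 7 rose, 10 fell and 10 did not pass, with a median log2 change of -0.24. MMP1, an interstitial collagenase whose promoter holds a classical AP-1 site, had log2 levels of 6.04 on both TARBP2 arrays against 11.49 and 11.44 on the GFP arrays. It fell by 5.42 ± 0.07 on the log2 scale (SE, n = 2 per group, limma adjusted p = 4.79e-05). Its raw intensities were 113.7 and 113.8 on the TARBP2 arrays, close to background, against 2907.3 and 2873.1 with GFP. The size of the fall therefore depends on the background correction. HBEGF, a ligand of the EGF receptor, fell by 0.93, while TIMP1, an inhibitor of matrix metalloproteinases, rose by 1.00. Target genes were listed from general knowledge, and binding of AP-1 to them was not measured.

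**Figure D4:**
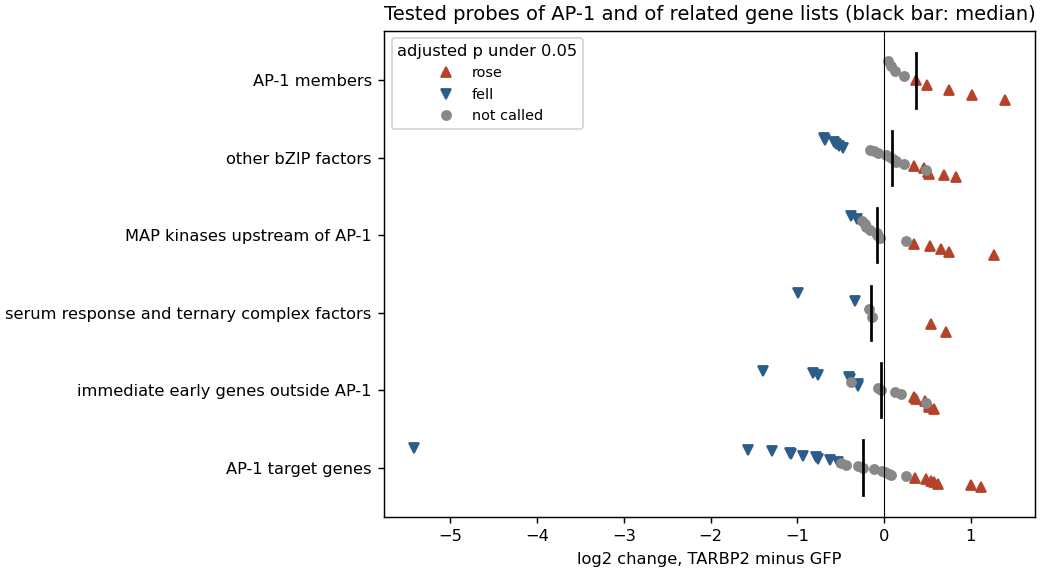
Log2 change, TARBP2 minus GFP (horizontal axis), of each tested probe of the AP-1 genes and of 5 related gene lists; triangles passed an adjusted p under 0.05, circles did not, and black bars are medians. The tested AP-1 probes all lie above 0, with a median of 0.37, though not all of them passed. Among all probes tested, 45.6% had a larger rise than FOSL2, the lowest of these. MAFF, which the authors' deposited table marks as lower, had no tied probe and is not shown. Each of the other lists has probes on both sides, and MMP1 stands alone at -5.42.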

How the data were processed

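Each probe has a deposited intensity and a detection p-value for each array, per the file headers. The authors also deposited quantile-normalised intensities and a table of log ratios per RefSeq accession, whose scale is not stated. These ratios are not log2 differences for every probe. For JUNB, close to background, the ratio was 0.187, against a log2 difference of 0.40 from the authors' normalised intensities. The lumi package is named per the submitters' processing notes; no version of it is stated there. Probes were named by matching each accession's log ratio, within 1e-09, to the difference of a fitted scaled inverse hyperbolic sine of the normalised intensities; 33113 of 39747 accessions (83.3%) matched 1 probe, and RefSeq symbols were then read from a GRCh38.p14 table. Of tested probes with a symbol 49.0% were called, against 40.3% of all; the cause was not tested.

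With limma 3.58.1 (R 4.3.3), raw intensities were corrected and normalised by neqc (offset 16). The 2-sided tests (lmFit, then eBayes, on log2 values) took the 22123 probes whose detection p was under 0.05 on 2 or more arrays, and Benjamini-Hochberg adjustment ran over all of these. The residual degrees of freedom were 2, so the number of arrays limits the precision. An exact permutation of 2 against 2 arrays cannot give a p below 0.333. The script was tested on simulated data.

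A lower bound on a fold compares the bright group with the lowest detected signal on each array of the dim group, or with the dim probe itself if higher. The members and gene lists were chosen with earlier results of these data known. Named genes were every AP-1 gene, the genes with the smallest p of each other list (at most 4), and MMP1, MAFG, MAFK, JDP2 and BATF whatever their values; SRF, EGR1 and the marker genes were named in addition. Some genes that this rule names are not reported here. Each comparison was repeated with other normalisations, offsets and filters, with 1 probe per gene, with each array left out, with a replicate block, with an intensity trend, and with the median of the 50 neighbouring genes subtracted.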

Additional observations from a re-analysis of the deposited data

How the results depend on the processing

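The count of 5 AP-1 probes past the threshold, all of which rose, ranged from 3 to 4 when 1 array was left out, with 3 without TARBP2 replicate 1, and reached at most 6 under the other settings. Leaving out the less certain ATF3 pair, a setting chosen after seeing the data, gave 4. The count of probes called in the other 5 lists together was 53 and ranged from 34 to 39 when 1 array was left out, being 34 without TARBP2 replicate 1 and 35 without TARBP2 replicate 2, with the highest value, 59, under an intensity trend and robust prior. Under these leave-one-out fits a group of 1 array is assumed to vary like the other group. JUN, not called in the reported fit, passed under 5 settings, 3 of which are named in the report; the others were an offset of 50 (adjusted p = 0.0419) and detection at p under 0.01 on all 4 arrays (0.0409), and the cause was not tested. JUNB was not tested under that stricter filter. The replicate number does not mark a shared culture in the labels, and the deviations of same-numbered arrays had a correlation of 0.0062, so the arrays were not treated as pairs; the fit with a replicate block called 5 AP-1 probes and 52 probes of the other lists. No direction of a called AP-1 probe reversed. Probes near background, JUNB among them, have folds that depend on the correction, and 4 arrays leave changes such as that of JUN unresolved.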
